A study of Rattus norvegicus with 18 samples.

Results

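The genes of the proteasome were followed in the lungs of smoke-exposed rats. They were taken by name: every probe set with a single annotated symbol beginning Psma, Psmb, Psmc, Psmd, Psme, Psmf or Psmg was collected, and each gene was represented by its probe set of highest mean signal. This gave 46 genes from 61 probe sets, out of 13807 genes with a single symbol on the arrays, and all 46 passed the filter on dim signals. They comprise 5 genes of the immunoproteasome (Psmb8, Psmb9, Psmb10, Psme1 and Psme2), 39 other proteasome genes and 2 genes that share the prefix but encode no subunit (Psmc3ip and Psme3ip1). The rule itself uses gene names and signal level and no measured change. It was, however, chosen with earlier results of these data known.

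RNA came from whole lungs of male Sprague-Dawley rats that inhaled mainstream smoke of the reference cigarette 2R4F through the nose only, or were sham-exposed. Exposure lasted 13 weeks, with 2 h per day on 5 days per week. The 3 exposures were sham and smoke at 300 or 600 µg of total particulate matter per litre of air; recovery before the lungs were removed was 2, 6 or 20 h. Each of these 9 conditions was hybridised once to each of 2 Affymetrix array types, A and B, giving 18 arrays, and the rats' age and the number of animals behind an array are not given in the sources used here. Of the members, 41 are read on type A and 5 on type B (Psmc6, Psmd7, Psmd9, Psmd12 and Psmd14). One further label of the 4 smoke samples at 20 h reads sham where the title and source name give smoke. Groups follow the titles. Values without the 20 h conditions are given only for the group medians, Psma1 and Psme4. The other comparisons of exposures over the recovery times, the counts of separated arrays and the marker sums use the 20 h arrays as titled. The arrays labelled sham at 6 h lay farthest from the others on both types: their median absolute distance from the other 8 arrays was 0.131 (log2) on type A, where the rest had 0.0954 to 0.113, and 0.185 on type B, where the rest had 0.137 to 0.165. Values without them, or the range with each condition left out in turn, stand beside several members. Earlier results of these data had singled out another sham array, that of 2 h on type B, which touches only the 5 type B members and was left out in an alternative.

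The proteasome is the barrel-shaped protease that degrades ubiquitin-tagged proteins. Its 20S core stacks rings of alpha subunits, which gate the entrance, on rings of beta subunits, of which Psmb5, Psmb6 and Psmb7 carry the active sites. The 19S cap uses an ATPase ring (Psmc genes) to unfold substrates and a lid and scaffold (Psmd genes) to bind and strip ubiquitin. Under interferon, cells build an immunoproteasome in which Psmb8, Psmb9 and Psmb10 take the places of Psmb5, Psmb6 and Psmb7, while Psme1 and Psme2 form an alternative activator cap; it cuts peptides suited to MHC class I. The genes of the standard particle are known targets of NFE2L1, which restores subunits when degradation is impaired, and in part of NRF2 (encoded by Nfe2l2), which responds to oxidants.

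Promoters were searched for the letters those regulators read, because antioxidant and interferon control are both known for members of this family. RefSeq promoter windows (build GRCr8, 250 bases before to 50 after the annotated start) were found for 42 of the 46 members, and both strands were searched. The antioxidant response element core TGACNNNGC occurred in the windows of 7 members (Psma3, Psmb2, Psmb5, Psmd1, Psmd3, Psmd9 and Psme4), that is 16.7% of those matched, and in 12.1% of all 33469 windows. It was in none of the 5 immunoproteasome windows. The core of the interferon-stimulated response element, a repeat of GAAA with 2 bases of any kind between, occurred in 7 members, 3 of them immunoproteasome genes (Psme2, Psmb8 and Psmb10) and 4 others (Psma4, Psmb3, Psmd7 and Psmg4), and in 3.92% of all windows. The gamma-activated site TTCNNNGAA occurred in 4 members (Psmb8, Psmc6, Psmd3 and Psmd7) and in 8.87% of all windows. Shown here, 5′ to 3′ along the gene, are the stretches around the first match in the core subunits Psmb2 and Psmb5, the immunoproteasome subunits Psmb8 and Psmb10 and the activators Psme2 and Psme4, whose values are described below, with the match in capitals; in Psme4 and Psmb8 the capitals are the motif on the opposite strand.
Psmb2 (chr5:144254965-144255023, forward strand of the chromosome): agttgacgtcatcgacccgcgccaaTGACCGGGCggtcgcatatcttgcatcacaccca
Psmb5 (chr15:32047406-32047464, reverse strand of the chromosome): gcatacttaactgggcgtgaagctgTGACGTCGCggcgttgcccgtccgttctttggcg
Psme4 (chr14:108706563-108706621, forward strand of the chromosome): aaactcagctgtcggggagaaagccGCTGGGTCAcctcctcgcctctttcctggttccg
Psmb8 (chr20:4657026-4657060, reverse strand of the chromosome): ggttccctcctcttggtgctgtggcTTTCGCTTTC
Psmb10 (chr19:50743331-50743390, reverse strand of the chromosome): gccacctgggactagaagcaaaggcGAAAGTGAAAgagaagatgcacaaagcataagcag
Psme2 (chr15:33052770-33052829, reverse strand of the chromosome): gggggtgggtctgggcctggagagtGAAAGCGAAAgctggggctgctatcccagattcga
The first 3 carry the antioxidant core and the last 3 the interferon core, which in Psmb8 runs across the start. These are letter matches and say nothing of binding in lung. The letters of none of the 3 motifs occur in the Psme1 or Psmb9 window. Psmb9 stands head to head with Tap1, which encodes a chain of the pump that loads the peptides: their starts lie 457 bases apart on chromosome 20, and their windows share 44 bases (chr20:4668750-4668793, forward strand):
Psmb9 and Tap1: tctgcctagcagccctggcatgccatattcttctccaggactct

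The proteasome genes of smoke-exposed lungs lay close to their sham level. None of the 46 genes passed the threshold (adjusted p 0.05, limma, two-sided, adjusted over all 19638 probe sets tested) at 600 µg/l against sham, where 0.514% of all probe sets did, nor at 300 µg/l against sham (0.0458%) nor at 600 against 300 µg/l (0.0204%). The test of any difference among the 3 exposures called none either (0.214% of all probe sets). At an unadjusted p under 0.05, 2 members stood out at 600 µg/l (Psme4 and Psmd2), that is 4.35% of members against 10.3% of all probe sets, 2 at 300 µg/l (Psma1 and Psmb9, against 5.53%), none between the 2 smoke levels (against 5.05%) and 2 in the test of any exposure (against 7.75%). Values are signals (deposited intensity, linear scale), and differences are of log2(signal + 50). Over the 39 other proteasome genes the median difference from sham was 0.033 at 600 µg/l and -0.00086 at 300 µg/l, beside -0.0075 and -0.0020 over all probe sets. Without the 20 h conditions the medians of the 39 genes were 0.035 and 0.039. The highest upper limit of any member's 95% interval at 600 µg/l was 0.82 (Psme4) and the lowest lower limit -0.45 (Psmd9); in 45 of 46 members the interval stayed within 0.5 either way, against 69.1% of all probe sets. A doubling in either direction (1 on the log2 scale) was outside the interval of every member at 600 µg/l, while smaller differences lay within the intervals that 3 arrays per exposure allow. Leaving out 1 of the 9 conditions at a time, the difference at 600 µg/l turned sign at least once in 17 of the 31 members for which this was run, and kept it in 14. Those 31 were the members picked for naming, class extremes and those with the smallest p among them, so the split does not describe all 46. Since RNA is from whole lung, fewer cells of a type and less RNA per cell cannot be told apart.

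**Figure D1:**
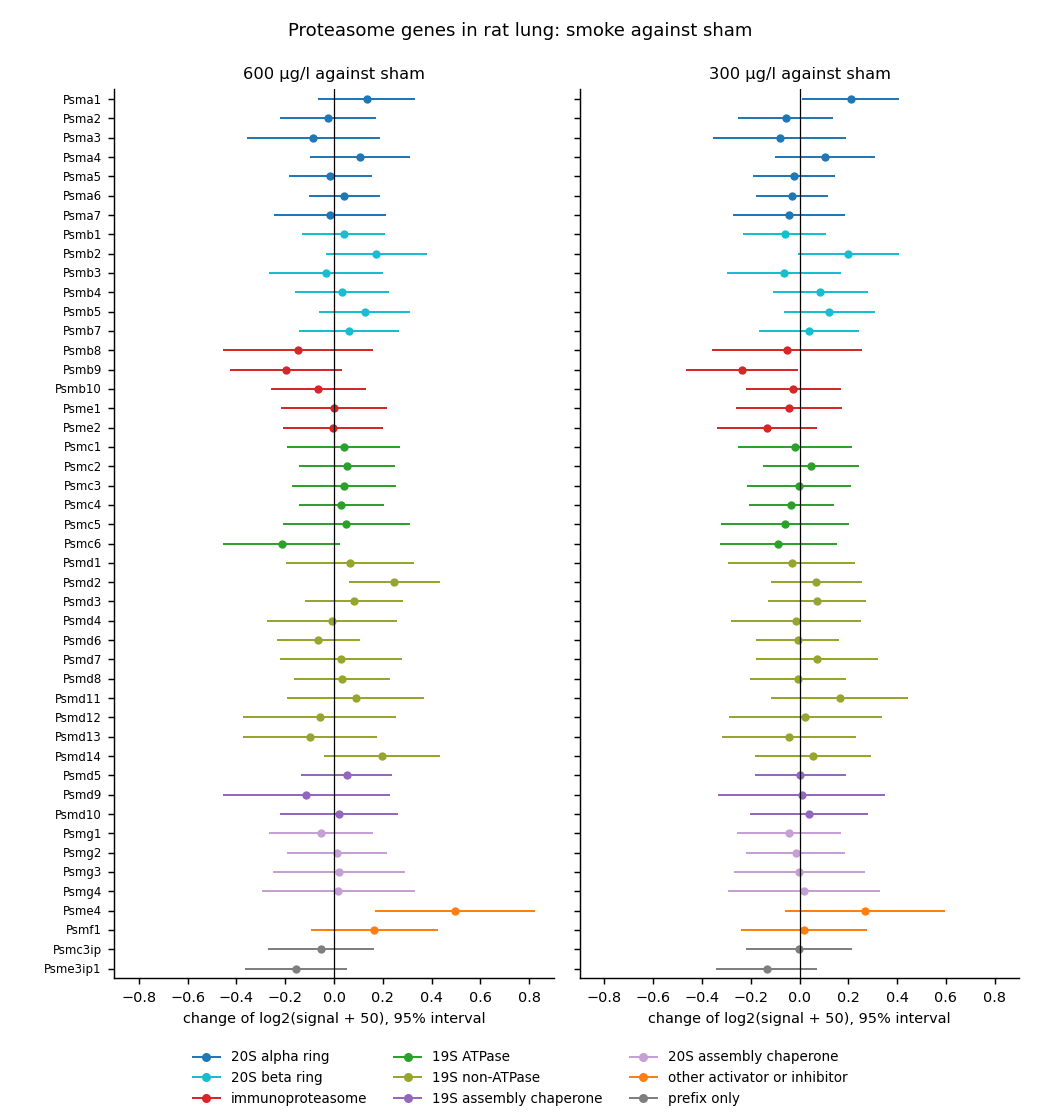
Difference of log2(signal + 50) from sham for the 46 genes, at 600 µg/l (left) and 300 µg/l (right); points are limma estimates over 3 recovery times and lines their 95% intervals, coloured by role. Nearly all points sit close to 0; Psme4 lies farthest right at 600 µg/l, at 0.50, and Psmc6 farthest left, at -0.21.

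In the alpha ring of the core, 3 of 7 genes were above sham at 600 µg/l and 4 below, none past the threshold, with a median of -0.016. Psma1 was the farthest up. Its signals at 2, 6 and 20 h were 1159, 962 and 1182 in sham lungs, 1241, 1263 and 1325 at 300 µg/l and 1272, 1178 and 1179.5 at 600 µg/l. All 3 arrays at 300 µg/l lay above all 3 sham arrays, while at 600 µg/l the arrays of 6 and 20 h lay just under the highest sham array. Its difference was 0.21 (SE 0.087, 95% interval 0.015 to 0.40, adjusted p = 0.86) at 300 µg/l and 0.13 (SE 0.087) at 600 µg/l. Without the sham array of 6 h these were 0.13 and 0.057, and without the 20 h conditions that at 600 µg/l was 0.20. Psma3 was the farthest down at 600 µg/l, -0.084 (SE 0.12, 95% interval -0.35 to 0.19, adjusted p = 0.87), and its sham arrays ranged from 789.5 to 1007, wider than its smoke arrays. Without the sham array of 6 h the difference was 0.065. A brighter probe set that also carries the symbol Psma3l, left out by the rule, gave 0.23 (SE 0.096) at 600 µg/l. Psma6 was the steadiest member of all, with signals from 3011 to 3309 over the 9 arrays.

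In the beta ring, 5 of 6 measured genes were above sham at 600 µg/l, none past the threshold (median 0.049, and 0.063 at 300 µg/l). Psmb2, a non-catalytic subunit, was highest. Its signals at 2, 6 and 20 h were 1835, 1518 and 1885 in sham lungs, 1925, 2117 and 1969 at 300 µg/l and 2025, 1874 and 2006 at 600 µg/l. The 3 arrays at 300 µg/l lay above every sham array, whereas at 600 µg/l the 6 h array fell between sham values; the sham array at 6 h was the lowest of all. The differences were 0.17 (SE 0.091, 95% interval -0.029 to 0.38, adjusted p = 0.56) at 600 µg/l and 0.20 (SE 0.091, 95% interval -0.0044 to 0.40, adjusted p = 0.91) at 300 µg/l, and without the sham array of 6 h 0.076 and 0.10. Psmb5, the chymotrypsin-like active subunit, gave 2219, 1745 and 1942 in sham lungs, 2182, 2183 and 2044 at 300 µg/l and 2225, 2050.4 and 2156 at 600 µg/l. Here too the sham array at 6 h was the lowest, and sham and smoke arrays overlapped. Psmb5 differed by 0.13 (SE 0.082, 95% interval -0.057 to 0.31, adjusted p = 0.66) at 600 µg/l, and by 0.052 without the sham array of 6 h. Psmb7, the trypsin-like active subunit, gave 1995, 2294 and 1916 in sham lungs, 2105, 2459 and 1846 at 300 µg/l and 2187, 2104 and 2165 at 600 µg/l, with overlapping groups and a difference of 0.060 (SE 0.090, 95% interval -0.14 to 0.26, adjusted p = 0.88) at 600 µg/l (-0.020 to 0.16 with 1 condition left out in turn). Psmb3 was the one beta gene below sham at 600 µg/l, with -0.034 (SE 0.10), or -0.10 to 0.055 with 1 condition left out. Psmb6, the remaining active subunit, has no value under the rule, since its one probe set also carries the symbol Psmb6l1.

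Read from their brightest probe sets, the 5 immunoproteasome genes all had estimates below sham at both smoke levels. The medians were -0.064 at 600 µg/l and -0.050 at 300 µg/l, and none passed the threshold. Single arrays decided the sign of these medians: without the sham array of 2 h that at 600 µg/l was 0.0081, and without the array at 300 µg/l and 2 h that at 300 µg/l was 0.025. Without the 20 h conditions they were -0.083 and -0.062. Psmb9, which replaces Psmb6, had the lowest estimate at both levels. Its signals at 2, 6 and 20 h were 1188, 1224 and 1249 in sham lungs, 925, 1206 and 972 at 300 µg/l and 989.6, 1021 and 1172 at 600 µg/l. All 3 arrays at 600 µg/l lay below the lowest sham array, and at 300 µg/l the 6 h array reached into the sham range. Psmb9 averaged 1220.4 ± 30.7 in sham, 1034 ± 150.5 at 300 µg/l and 1061 ± 97.7 at 600 µg/l (SD over the recovery times, n = 3 each), and the difference was -0.20 (SE 0.10, 95% interval -0.42 to 0.028, adjusted p = 0.55) at 600 µg/l and -0.24 (SE 0.10, 95% interval -0.46 to -0.013, adjusted p = 0.87) at 300 µg/l. With 1 condition left out in turn these ran from -0.28 to -0.12 (highest without the array at 600 µg/l and 6 h) and from -0.36 to -0.16 (lowest without the array at 300 µg/l and 6 h, highest without that of 20 h). Psmb8, which replaces Psmb5, gave 1823, 1335 and 1862 in sham lungs, 1320.5, 1826 and 1687 at 300 µg/l and 1404, 1479 and 1595 at 600 µg/l. Its sham arrays were high at 2 and 20 h and low at 6 h, so that the groups overlapped, and the difference at 600 µg/l was -0.15 (SE 0.14, 95% interval -0.45 to 0.16, adjusted p = 0.78). Without the sham array of 2 h it was 0.0081, and without the sham array of 6 h -0.34 (adjusted p = 0.38). Psmb10, which replaces Psmb7, gave 732, 838 and 678 in sham lungs, 670.2, 835 and 702 at 300 µg/l and 724, 749.8 and 665 at 600 µg/l. Its 3 groups overlapped, with a difference of -0.064 (SE 0.085) at 600 µg/l (-0.11 to -0.015 with 1 condition left out). The activator genes were nearer to sham at 600 µg/l. Psme1 gave 3439, 3312 and 3678 in sham lungs, 3089.5, 3936 and 3146 at 300 µg/l and 3568, 3338 and 3513 at 600 µg/l, a difference of -0.00045 (SE 0.096) at 600 µg/l. Its dimmer probe set, on type B, gave -0.13 (SE 0.18) at 600 µg/l and 0.17 at 300 µg/l, above sham at the lower level. Psme2 gave 1338, 1349 and 1268 in sham lungs, 1055, 1377 and 1182 at 300 µg/l and 1227, 1348 and 1369 at 600 µg/l, a difference of -0.0046 (SE 0.090) at 600 µg/l and of -0.13 (SE 0.090) at 300 µg/l. In both activator genes, read from their brightest probe sets, the array at 300 µg/l and 2 h was the lowest and that at 300 µg/l and 6 h the highest.

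The median of the immunoproteasome genes in smoke-exposed lungs lay farthest below sham 2 h after the last session, at both smoke levels. At 300 µg/l all 5 were below the sham array of that time (median -0.33, from -0.45 to -0.12), and at 600 µg/l 4 of 5 were (median -0.12). Each such difference is between single arrays. The dimmer probe set of Psme1 was above sham at 2 h, with 400 in sham, 447 at 300 µg/l and 452 at 600 µg/l. At 6 h the medians were 0.028 and -0.0010, and at 20 h -0.14 and -0.065. Over both smoke levels together, Psmb8 was -0.41 (SE 0.14) from sham at 2 h, Psmb9 -0.30 (SE 0.15), Psme2 -0.22 (SE 0.14), Psmb10 -0.067 (SE 0.13) and Psme1 -0.050 (SE 0.14); the smallest adjusted p of the 5 was 0.75, for Psmb8. In 2 of the 5 another time was lower, Psme1 with -0.14 (SE 0.14) at 20 h and Psmb10 with -0.078 (SE 0.13) at 6 h. The SEs of this model come from the spread between 300 and 600 µg/l within a time and hold no variation among sham arrays. Whether the smoke difference moved with time was tested directly: for Psmb8 it was 0.70 (SE 0.20, 95% interval 0.25 to 1.15, adjusted p = 0.63) higher at 6 h than at 2 h, and for the other 4 the change from 2 to 6 h lay between -0.011 (Psmb10) and 0.24 (Psme2). That value for Psmb8 rests on 1 sham array at each time, 1823 at 2 h and 1335 at 6 h. Within the lungs exposed to 300 µg/l all 5 genes were higher at 6 than at 2 h (median 0.37) and lower again at 20 than at 6 h (-0.24). In sham lungs the same medians were 0.012 and 0.029, and at 600 µg/l 0.047 and 0.073. Most of the 39 other proteasome genes took the same course at 300 µg/l. Of them 30 were higher at 6 than at 2 h (median 0.052) and 32 lower at 20 than at 6 h (median -0.16).

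**Figure D2:**
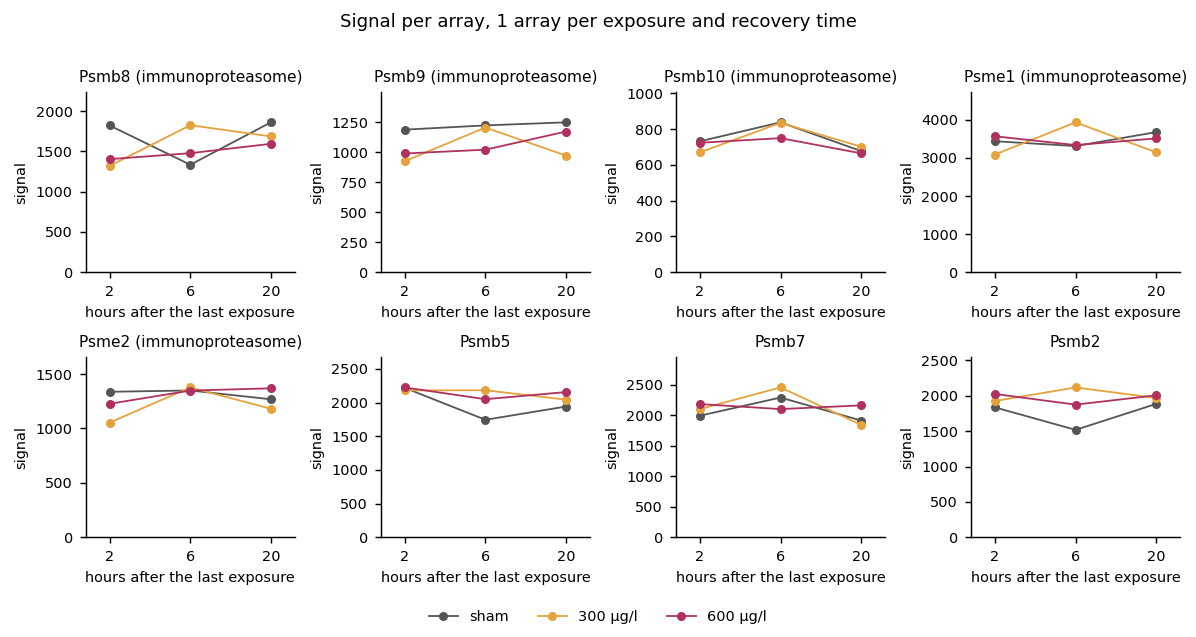
Signal (deposited intensity, linear axes from 0) of the 5 immunoproteasome genes and of Psmb5, Psmb7 and Psmb2, against hours after the last exposure (evenly spaced); each point is 1 array and lines join arrays of one exposure. Psmb9 is highest in sham at all 3 times, Psmb8 is low in smoke at 2 h and in sham at 6 h, and Psmb5 and Psmb2 are lowest in sham at 6 h.

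Lymphocytes are rich in immunoproteasome, and their markers were followed beside these genes. The 4 NK cell markers on type A (Nkg7, Klrd1, Prf1 and Ncr1) had a summed signal of 1467 to 1804 in sham, 1008 to 1417 at 300 µg/l and 1029 to 1238 at 600 µg/l. In these sums the smoke arrays did not reach the sham arrays. Klrd1 by itself overlapped with sham, as did Ncr1, which was too dim to be tested. The NK marker on type B, Gzmb, overlapped, with 175 to 523 in sham, 214 to 439 at 300 µg/l and 280.1 to 295 at 600 µg/l. The 4 T cell markers on type A (Cd3d, Cd3g, Cd247 and Cd4) summed to 1359 to 1421 in sham, 1257 to 1410.4 at 300 µg/l and 956 to 1180.4 at 600 µg/l, and the 2 on type B (Cd3e and Cd8a) to 508 to 1066, 612 to 967 and 518 to 710.3, which overlapped. At 2 h the median log2 difference of smoke from sham was -0.68 over the 4 tested NK genes, 3 of them lower at an unadjusted p under 0.05 (5.14% of all probe sets reached it in either direction) and Gzmb higher, at 0.42, and -0.17 over the 6 T cell genes; none of either list passed the threshold in that comparison or at 600 µg/l against sham. Their part in the immunoproteasome values was not tested. Of 15 tested interferon-responsive genes none passed the threshold at 600 µg/l (median -0.15). At an unadjusted p under 0.05 in the same fit, 2 of the 15 were lower, beside 10.3% of all probe sets in either direction. They were Gbp2, a guanylate-binding protein, at -0.27 (SE 0.085) and the antiviral gene Rsad2 at -0.31 (SE 0.13). Of 9 genes of MHC class I peptide loading none passed (median -0.027); the classical class I gene RT1-A2 was at 0.46 (SE 0.19). Tap1, the neighbour of Psmb9, gave a difference of -0.078 (SE 0.15) at 600 µg/l and, over both smoke levels, -0.47 at 2 h. Its signals at 2, 6 and 20 h were 594.5, 466.5 and 508 in sham lungs, 355, 554 and 548 at 300 µg/l and 487, 472 and 512 at 600 µg/l. At 6 and 20 h both smoke levels were thus above the single sham array in Tap1 and below it in Psmb9.

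In the ATPase ring of the 19S cap, 5 of 6 genes had estimates above sham at 600 µg/l (median 0.041) and 1 of 6 at 300 µg/l (median -0.026), none past the threshold. Psmc2, the highest at 600 µg/l, was 0.054 (SE 0.086) from sham. Without the sham array of 6 h Psmc2 was at -0.034 and Psmc5 at -0.11, both below sham. Psmc6, read on type B, was the exception. Its signals at 2, 6 and 20 h were 1428, 1469 and 1376 in sham lungs, 1445, 1263 and 1310 at 300 µg/l and 1242, 1342 and 1091 at 600 µg/l. All 3 arrays at 600 µg/l lay below the lowest sham array, and those at 300 µg/l overlapped with sham. The difference was -0.21 (SE 0.11, 95% interval -0.45 to 0.022, adjusted p = 0.53) at 600 µg/l and -0.087 (SE 0.11) at 300 µg/l, and -0.24 at 600 µg/l without the sham array of 2 h. With 1 condition left out in turn it ran from -0.29 to -0.15. Its second probe set on the same type gave 0.066 (SE 0.12), the opposite sign, and the mean of both gave -0.074. A dimmer probe set shared with Psmc6-ps2, left out by the rule, gave 0.29 (SE 0.22) at 600 µg/l.

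Of the 11 lid and scaffold genes of the cap, 7 were above sham at 600 µg/l and 4 below (median 0.033). Psmd2, a scaffold subunit that docks ubiquitin-carrying shuttles, stood highest. Its signals at 2, 6 and 20 h were 1635, 1329.9 and 1492 in sham lungs, 1626, 1539 and 1504 at 300 µg/l and 1765, 1793 and 1739 at 600 µg/l. Every array at 600 µg/l lay above every sham array, and the 3 arrays at 600 µg/l were closer together than the 3 sham arrays. Psmd2 averaged 1486 ± 153 in sham, 1556 ± 62.6 at 300 µg/l and 1766 ± 27.1 at 600 µg/l (SD over the recovery times, n = 3 each), and the difference was 0.25 (SE 0.082, 95% interval 0.064 to 0.43, adjusted p = 0.31) at 600 µg/l, 0.069 (SE 0.082) at 300 µg/l and 0.18 (SE 0.082, 95% interval -0.0053 to 0.36, adjusted p = 0.99) between the smoke levels. Without the sham array of 6 h, its lowest, the difference at 600 µg/l was 0.17. Psmd14, the deubiquitinase that strips the ubiquitin chain, read on type B, gave 2048, 1941 and 1783 in sham lungs, 1993, 2000.1 and 2003 at 300 µg/l and 1992, 2332 and 2325 at 600 µg/l, and was 0.20 (SE 0.10, 95% interval -0.036 to 0.43, adjusted p = 0.57) from sham at 600 µg/l. In this probe set the 3 arrays at 2 h were alike, and at 6 and 20 h those at 600 µg/l were the highest. The 2 dimmer probe sets of Psmd14 gave 0.14 and 0.086 at 600 µg/l, with another course. At 2 h they read 1401 and 744 at 600 µg/l, against 1794 and 846 in sham. At 6 h the dimmest read 753.5 at 600 µg/l and 764 in sham. At 20 h the array at 600 µg/l was the highest in both. Psmd13 was the lowest of the class, -0.10 (SE 0.12), and ran from -0.25 to 0.022 with 1 condition left out.

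The chaperones that assemble the particle were near sham. Of the 3 that build the cap base, Psmd5 was highest at 0.051 (SE 0.082) and Psmd9 lowest at -0.11 (SE 0.15) at 600 µg/l. Of the 4 Psmg genes, which build the alpha ring, Psmg3 was highest at 0.021 (SE 0.12) and Psmg1 lowest at -0.055 (SE 0.094). With 1 condition left out in turn these 4 ran from 0.0034 to 0.089, -0.25 to -0.040, -0.082 to 0.16 and -0.15 to 0.0056, in that order. The prefix-only genes lay below sham at 600 µg/l. Psme3ip1, a partner of the nuclear activator Psme3, gave 682, 678 and 687 in sham lungs, 658, 533 and 669 at 300 µg/l and 623, 599 and 600.2 at 600 µg/l. The sham arrays were nearly equal and all 6 smoke arrays lay below them, with a difference of -0.16 (SE 0.092, 95% interval -0.36 to 0.048, adjusted p = 0.62) at 600 µg/l. Psmc3ip, a meiotic recombination factor, was at -0.054 (SE 0.096).

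The largest difference among the 46 genes was in Psme4, which encodes a large single-chain activator of the core that caps it without ubiquitin. Its brightest probe set gave signals at 2, 6 and 20 h of 969.9, 644 and 494 in sham lungs, 887, 891 and 713 at 300 µg/l and 1058, 880.4 and 998 at 600 µg/l. The sham arrays ran from the third highest of the 9 at 2 h to the lowest at 20 h, whereas the smoke arrays stayed between 713 and 1058. Psme4 averaged 702 ± 244 in sham, 830.3 ± 102 at 300 µg/l and 979 ± 90.2 at 600 µg/l (SD over the recovery times, n = 3 each), and the difference was 0.50 (SE 0.15, 95% interval 0.17 to 0.82, adjusted p = 0.25) at 600 µg/l and 0.27 (SE 0.15, 95% interval -0.056 to 0.59, adjusted p = 0.96) at 300 µg/l. At 2 h smoke and sham differed by -0.0015 (SE 0.19), at 6 h by 0.43 (SE 0.19) and at 20 h by 0.72 (SE 0.19, 95% interval 0.29 to 1.15, adjusted p = 0.57), and the smoke difference was 0.72 (SE 0.27, 95% interval 0.11 to 1.33, adjusted p = 0.9996) larger at 20 h than at 2 h. Without the 20 h conditions the difference at 600 µg/l was 0.27, without the sham array of 20 h 0.33, and without the sham array of 2 h 0.69. The gene's other probe sets gave values nearer to 0. The second gave 911, 827 and 797 in sham lungs, 819.7, 845 and 741 at 300 µg/l and 769.8, 792 and 839 at 600 µg/l, a difference of -0.072 (SE 0.090) at 600 µg/l. The third gave 330, 347 and 316 in sham lungs, 347, 369 and 328 at 300 µg/l and 345, 339 and 371 at 600 µg/l, a difference of 0.076 (SE 0.095). With the mean of the 3 probe sets in place of the brightest one, the difference at 600 µg/l was 0.17. Psmf1, an inhibitor of the core, gave 478, 619 and 603 in sham lungs, 496, 650 and 578 at 300 µg/l and 618, 564 and 743 at 600 µg/l, with overlapping groups and a difference of 0.17 (SE 0.11, 95% interval -0.089 to 0.42, adjusted p = 0.68) at 600 µg/l. Without the array at 600 µg/l and 2 h it was 0.086, without that of 6 h 0.32 and without that of 20 h 0.089.

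**Figure D3:**
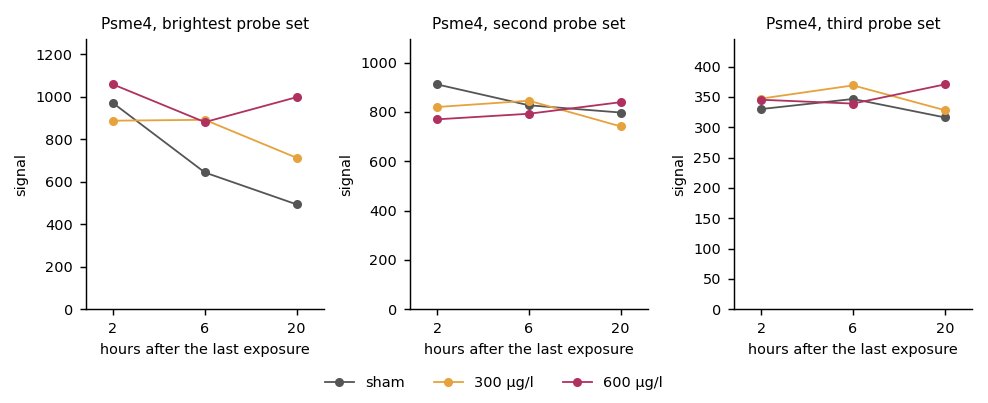
Signals of the 3 Psme4 probe sets (linear axes from 0) against hours after the last exposure (evenly spaced), 1 array per point. In the brightest, the sham line drops from 969.9 to 494 while smoke stays high; in the other 2 the lines lie close together.

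Separation of the arrays was also counted. Psmd2 was the only member with all 3 arrays at 600 µg/l above all 3 sham arrays, 2.17% of members against 6.98% of all probe sets, and Psmb9, Psmc6 and Psme3ip1 (6.52%, against 7.42%) had all 3 below. At 300 µg/l, Psma1 and Psmb2 (4.35%, against 4.12%) lay above and Psme3ip1 (2.17%, against 4.32%) below. These shares were close to or under those of all probe sets. Time by time, the arrays at 600 µg/l were above the sham array at all 3 times in 5 members (Psma6, Psmb2, Psmb5, Psmd2 and Psme4) and below it in 6 (Psmb9, Psmb10, Psmc6, Psmd6, Psmc3ip and Psme3ip1), beside 14.9% and 16.6% of all probe sets.

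Recovery times did not separate the members past the threshold either. None passed the threshold at 6 h against 2 h (where 0.0153% of all probe sets did), at 20 h against 2 h (0.0509%) or at 20 h against 6 h (0%). At an unadjusted p under 0.05 there were 1 (Psmd12; 10.8% of all probe sets), 2 (Psme4 and Psmd7; 11.4%) and 4 (Psmb10, Psmc4, Psmd9 and Psmb7; 4.49%). Psmd12, a lid subunit read on type B, gave 1061, 1643 and 1300.5 in sham lungs, 1065, 1451 and 1544 at 300 µg/l and 1286, 1262 and 1232 at 600 µg/l; it was lowest at 2 h in sham and at 300 µg/l, with 0.34 (SE 0.14, 95% interval 0.029 to 0.65, adjusted p = 0.43) from 2 to 6 h. Psmd7, the lid partner of Psmd14, was -0.27 (SE 0.11, 95% interval -0.52 to -0.025, adjusted p = 0.40) from 2 to 20 h, and its dimmer probe set on type A gave -0.083. The difference from 2 to 20 h was 0.25 (SE 0.11) for Psmf1 and 0.23 (SE 0.12) for Psmg3. All 6 ATPase genes were lower at 20 than at 2 h (median -0.12), with Psmc5 lowest at -0.19 (SE 0.12), and all 4 Psmg genes were higher (median 0.095), none past the threshold. The remaining genes farthest out in their class at 20 against 2 h were Psma2 at -0.13 (SE 0.086), Psma4 at 0.041 (SE 0.090), Psmb4 at 0.070 (SE 0.085) and Psmb5 at -0.11 (SE 0.082) in the core, Psmb8 at 0.18 (SE 0.14) and Psmb10 at -0.052 (SE 0.085) in the immunoproteasome, and Psmd10 at -0.079 (SE 0.11) and Psmc3ip at -0.015 (SE 0.096) elsewhere.

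From 6 to 20 h, 35 of 46 members had lower values, with a median of -0.047 beside -0.0016 over all probe sets. Psmb10 had the smallest unadjusted p, with a difference of -0.23 (SE 0.085, 95% interval -0.42 to -0.038, adjusted p = 0.9998). The direction was not shared evenly by the exposures. At 300 µg/l 37 of 46 members were lower at 20 than at 6 h (median -0.16), in sham 30 (-0.057) and at 600 µg/l 24 (-0.013). Arrays at 300 µg/l stood out. Of the 34 other proteasome genes read on type A, 12 had their lowest value on the array labelled 300 µg/l at 20 h, which was lowest for 10.1% of all type A probe sets, and 10 had their highest value on the array at 300 µg/l and 6 h (8.27% of all). The 34 genes deviated from their own means by a median of -0.090 on the first and 0.094 on the second, and over all type A probe sets these medians were 0.012 and 0.0019. The GAPDH 3'/5' ratio, a measure of RNA integrity, was 1.18 and 1.14 on them, within the range of the type A arrays (1.09 to 1.25).

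**Figure D4:**
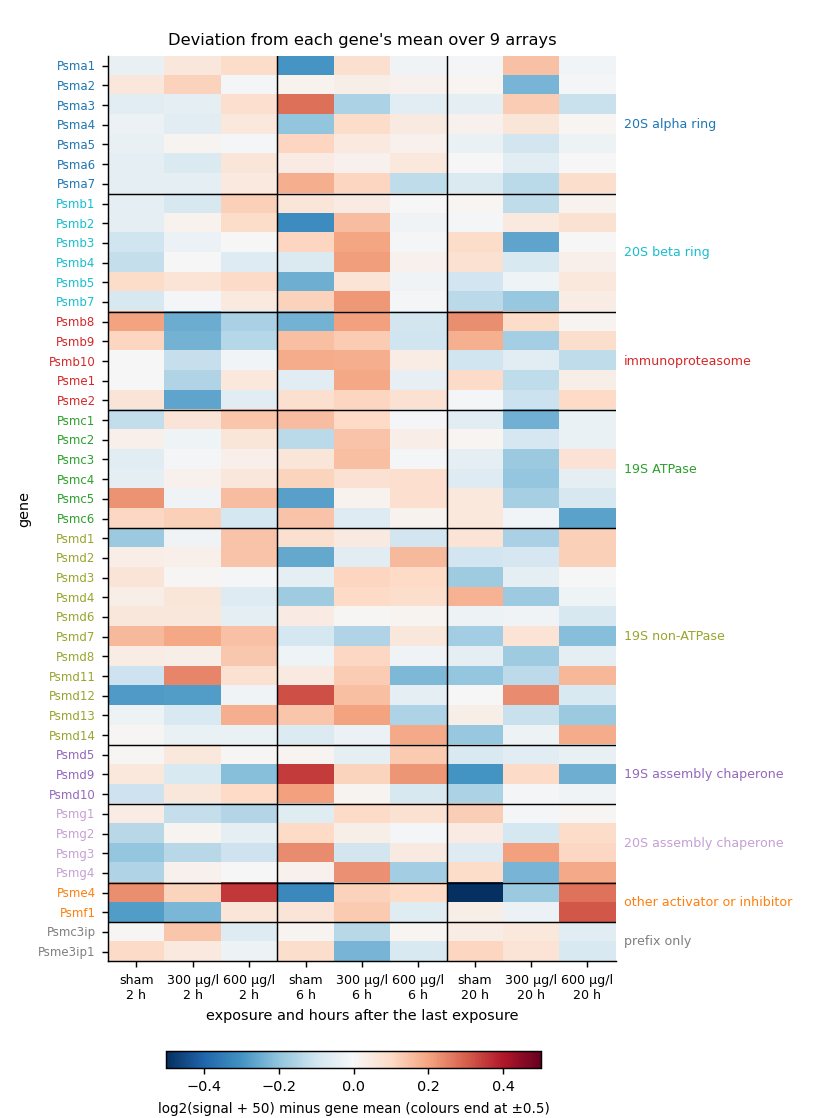
Deviation of log2(signal + 50) from each gene's mean over its 9 arrays (colour, red above and blue below, colours end at ±0.5), for the 46 genes by role (rows) in 9 conditions (columns, ordered by hours after the last exposure). The column of 300 µg/l at 20 h is mostly blue and that of 300 µg/l at 6 h mostly red, and the immunoproteasome rows are blue at 300 µg/l and 2 h.

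The smoke difference at single times gave no call among the members. Smoke against sham, both levels together, called none at 2 h (0.0713% of all probe sets), 6 h (0.0102%) or 20 h (0%), and the changes of that difference from 2 to 6 h (0%) and from 2 to 20 h (0.0102%) called none. At an unadjusted p under 0.05 there were 1 at 2 h (Psmb8; 5.14% of all probe sets), 6 at 6 h (13% of members, against 9.87%), 1 at 20 h (Psme4; 5.83%), 4 for the change to 6 h (Psmb8, Psmc5, Psmd10 and Psma3; 6.27%) and 1 for the change to 20 h (Psme4; 3.45%). At 6 h the 6 were Psmb2, Psma1, Psmb5, Psmc5 and Psme4 above sham and Psma3 below it. Psmb2 had the smallest adjusted p, with 0.38 (SE 0.12, 95% interval 0.12 to 0.64, adjusted p = 0.34), followed by Psma3 with -0.38 (SE 0.14, 95% interval -0.70 to -0.061, adjusted p = 0.43). The probe set that Psma3 shares with Psma3l went the other way at 6 h, with 1614 in sham, 1842 at 300 µg/l and 1796 at 600 µg/l. In 5 of these 6 genes the sham array at 6 h was either the highest or the lowest of the 9; in Psme4 it was the second lowest. On that array 7 of the 34 genes on type A had their lowest and 8 their highest value, beside 16.1% and 17.4% of all type A probe sets, and its GAPDH and hexokinase 3'/5' ratios (1.25 and 4.52) were the highest of type A. The part of that array in these values was not tested.

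The members varied little over the 9 arrays. In 42 of 46 members (91.3%) the highest and lowest of the 9 arrays differed by less than 0.5 on the log2 scale, against 49.4% of all probe sets; the median range was 0.36 against 0.50, and the median residual SD 0.11 against 0.15. The 4 wider genes were Psme4, Psmd9, Psmd12 and Psmf1. Members were brighter, with a median mean signal of 1150 against 535, and each was read from its brightest probe set. Among the 3808 probe sets at least as bright as the median member, 66.9% had a range under 0.5, beside 22 of the 23 members of that brightness. No test was made of this difference.

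**Figure D5:**
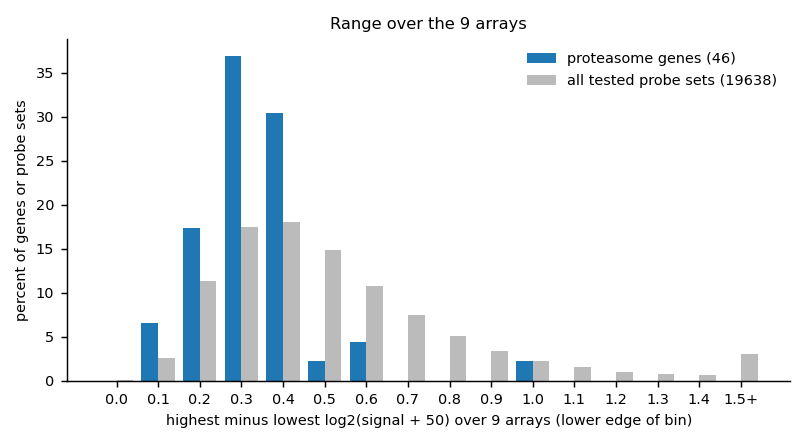
Share of the 46 genes (blue) and of the 19638 probe sets tested (grey) by the difference between their highest and lowest log2(signal + 50) over 9 arrays, in bins of 0.1 labelled by their lower edge. The bars of the proteasome genes lie below 0.7, apart from that of Psme4.

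Genes around the proteasome were set beside it. Of 10 tested partners without the prefix, none passed the threshold at 600 µg/l (median 0.12, 9 of 10 above sham): the shuttle receptor Rad23b was at 0.20 (SE 0.087), the core maturation factor Pomp at 0.18 (SE 0.093) and the redoxin Txnl1 at 0.12 (SE 0.074). Of 13 ubiquitin and p97 genes none passed (median 0.054); the conjugating enzyme Ube2d2 was at 0.20 (SE 0.089) and the autophagy receptor Sqstm1 at 0.19 (SE 0.087). Of 6 tested regulators none passed: Nfe2l1 was at -0.11 (SE 0.082) and Nfe2l2 at 0.27 (SE 0.13). At 2 h Nfe2l2 was 0.66 from sham over both smoke levels, with 1397 in sham, 2152 at 300 µg/l and 2312 at 600 µg/l. Ifng, the gene of interferon gamma, and Tnf were too dim to be tested. The untested Tnf signals were 68 to 89 in sham, 91.5 to 110 at 300 µg/l and 127 to 143 at 600 µg/l. Beside these, 2 of 16 NRF2 antioxidant genes rose past the threshold at 600 µg/l and none fell (median 0.43), where 0.514% of all probe sets passed. They were the heme-degrading enzyme Hmox1 at 0.96 (SE 0.16, adjusted p = 0.038) and the glutathione transferase Gstp1 at 0.55 (SE 0.099, adjusted p = 0.048). At an unadjusted p under 0.05 in the same fit, 11 of the 16 were higher and none lower, against 10.3% of all probe sets in either direction. Read from their brightest probe sets, the 7 members with the antioxidant core in their promoter window spanned -0.11 (Psmd9) to 0.50 (Psme4) in the same comparison. The second probe sets of these end genes had the opposite sign, at 0.057 for Psmd9 and -0.072 for Psme4. No test was made between the lists.

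Some markers of inflammatory cells were higher in the smoke-exposed lungs. The 3 macrophage markers on type A (Cd68, Csf1r and Fabp4) summed to 2619.5 to 3123 in sham, 3467 to 3969 at 300 µg/l and 3972 to 4544 at 600 µg/l. Of them only Cd68 separated, with 1026 to 1147, 1770 to 2171 and 2440 to 2672. Csf1r overlapped with sham, as did Fabp4, which was too dim to be tested. The 2 neutrophil markers on type A (S100a8 and S100a9) summed to 889 to 1647, 2542 to 3302 and 3352 to 7545, and S100a8 by itself overlapped with sham. At 600 µg/l 1 of 4 tested macrophage markers rose past the threshold, Cd68, and 1 of 3 neutrophil markers, S100a9, and none fell. The macrophage gene Csf1r was at -0.11 (SE 0.11) and Cd163 at -0.16 (SE 0.13). On type B the 2 macrophage markers summed to 4133 to 5591 in sham, 4715 to 5602 at 300 µg/l and 5658 to 6153 at 600 µg/l, and the neutrophil gene Csf3r gave 398 to 562, 507 to 808 and 552 to 706. At 300 µg/l both overlapped with sham, and at 600 µg/l Csf3r did. The alveolar type 2 markers, which define the tissue, summed to 48337 to 55819.9 in sham, 50138 to 54221 at 300 µg/l and 51914 to 56549 at 600 µg/l, with none of 5 past the threshold. No marker of the dendritic (3 tested), B cell (2), alveolar type 1 (4), club (2), endothelial (3), heart (2) or erythroid (2) lists passed at 600 µg/l. The part of these cells in the members' values was not tested.

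Of the members, 10 had more than 1 probe set, and in 5 of the 9 with more than 1 tested the sign at 600 µg/l differed between them (Psma7, Psmc6, Psmd7, Psmd9 and Psme4). For Psma7, an alpha subunit, the brighter probe set gave -0.017 (SE 0.10) and the dimmer 0.079 (SE 0.14). For Psmd7 they gave 0.030 (SE 0.11) and -0.094 (SE 0.084), and for Psmd9 -0.11 (SE 0.15) and 0.057 (SE 0.11). None of these probe sets passed the threshold in any comparison, the smallest adjusted p being 0.25. A further 7 probe sets carry a member's symbol together with another gene's and were left out, among them the only ones for Psmb6 and Psme3. At 600 µg/l the probe set shared with Psmb6l1 gave 0.059 (SE 0.087). That shared by Psma3 and Psma3l gave 0.23 (SE 0.096), and that shared by Psmc6 and Psmc6-ps2 gave 0.29 (SE 0.22). Both are opposite in sign to the values reported for Psma3 and Psmc6. Those tested for Psme3 gave 0.095 (SE 0.081), 0.24 (SE 0.11) and -0.055 (SE 0.13). The RefSeq table lists 48 pseudogenes of proteasome genes, so a probe set may read a near copy as well, and such values are uncertain to that extent.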

How the data were processed

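Biotinylated cRNA of rat lung was read on 2 types of Affymetrix array, per the labels. The deposited files hold 1 intensity per probe set on a linear scale; the submitters' processing notes name MAS5 without a version. The authors' scaling was kept, since the mean without the extreme 2% was 500.09 to 500.1 on every array. Samples were grouped by title. Values were analysed as log2(signal + 50), which shrinks folds of dim genes. A probe set had to reach its type's 40th percentile (183.8 for A and 238.7 for B) in 3 or more of the 9 arrays, which left 19638. Both types were fitted separately in R 4.3.3 by limma 3.58.1 (eBayes with a trend on intensity), and p-values were adjusted over both types together by Benjamini-Hochberg at a two-sided threshold of 0.05. One model had terms for exposure and for recovery time (4 residual degrees of freedom); another had smoke at either level, recovery time and their interaction (3). Conditions have no replicate arrays, so p-values measure the spread between these arrays, which may be technical. The script was tested on simulated data. Members and gene lists were chosen with earlier results of these data known; named genes are the immunoproteasome and active-site genes, each class's extremes, those with the smallest p, those whose probe sets disagree, and up to 3 genes per list. Others were named after seeing their values (Psma6, Psmd14 and members in small counts). Alternatives covered scaling, pseudocount, filter, trend, adjustment, covariates, probe set choice and left-out arrays. Gene symbols came from the platform annotation, updated through Entrez identifiers.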

Additional observations from a re-analysis of the deposited data

How the results depend on the processing

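No member passed the threshold in any of the 12 comparisons under any of the 22 alternatives that could be fitted to it, and the smallest adjusted p of any member under them was 0.097 (600 µg/l against sham). The alternatives were quantile or median scaling, a smaller or larger pseudocount, no filter or one at the 60th percentile, adjustment within each type, a fit without the intensity trend, exclusion of the 2 h sham array on type B or of the 20 h conditions, only the groups compared, no recovery time in the model, the mean of a gene's probe sets, and each of the 9 conditions left out in turn. Leaving out each in turn gave medians of the immunoproteasome genes at 600 µg/l of -0.11 to 0.0081, and the highest came without the sham array of 2 h; the cause was not tested. Members at an unadjusted p under 0.05 numbered 1 to 3 at 600 µg/l and 0 to 3 at 300 µg/l. Among all probe sets, 35 (no filter) to 143 (adjustment within each type) passed at 600 µg/l, beside 101 as reported, and 1 to 29 at 300 µg/l, beside 9. Without recovery time in the model, that is with no replicate block, no member passed either. The number of arrays limits precision.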
